A study of Drosophila melanogaster with 2 samples.

Results

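The chemosensory receptor genes of Drosophila melanogaster were examined for binding of the transcription factor Lola in the embryo. They were the protein-coding genes of the Ensembl BDGP6 annotation whose symbol is Or, Gr or Ir followed by a digit, together with Orco. The rule found 180 genes, 60 odorant receptor (Or) genes including Orco, 60 gustatory receptor (Gr) genes and 60 ionotropic receptor (Ir) genes, of 13945 coding genes on 6 chromosome arms. Binding had been mapped by chromatin immunoprecipitation and sequencing in whole embryos of both sexes, aged 0 to 12 h, from the transgenic line lola-J-GFP. This line carries Lola-RJ, 1 splice form of Lola, with GFP fused to its C terminus, and the protein was precipitated through the GFP, although the antibody label names lola itself. All embryos formed 1 group with 2 biological replicates, numbered 1 and 3, so no second genotype or stage was compared. Whole embryos mix many tissues, and a site bound in few cells cannot be told apart from a weak site bound in many.

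Odorant receptors are membrane proteins of olfactory neurons that form ion channels with the shared co-receptor Orco. Gustatory receptors are a related family and detect sugars, bitter compounds and, through Gr21a and Gr63a, carbon dioxide. Ionotropic receptors descend from glutamate receptors, detect acids, amines, humidity and temperature with the co-receptors Ir8a, Ir25a and Ir76b, and are not related to the other families. An adult olfactory neuron typically expresses a single odorant receptor beside Orco, and most receptor genes are expressed only late in development in a small set of sensory neurons. Lola is a BTB zinc-finger protein best known for its part in axon guidance, and its splice forms differ in their zinc fingers.

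The bound sites that carry the results were the 2 that fell within 500 bp of a receptor transcription start site (TSS), the strongest site in any receptor locus, a site at the promoter of the gene that contains Gr94a, and the strongest pair near Gr93a. Each sequence below runs along the dm6 plus strand from 50 bp before to 50 bp after a summit, the single base that the deposited list gives as the peak's position. Capitals mark a match on either strand to 1 of 4 promoter motifs, TATCGATA (the DRE, bound by Dref), GGTCACAC (bound by M1BP), GAGAG (the GAGA element) and TATAAA (the TATA box). The GAGAG motif was absent from all 6.
Or88a promoter, 3R:14108972-14109072: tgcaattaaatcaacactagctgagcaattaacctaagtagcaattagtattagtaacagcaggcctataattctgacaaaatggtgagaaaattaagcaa
Gr63a and Lamtor4 promoters, 3L:3896816-3896916: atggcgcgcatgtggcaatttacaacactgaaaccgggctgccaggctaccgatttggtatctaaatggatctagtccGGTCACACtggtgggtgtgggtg
RpL34b promoter in the Or85f locus, 3R:9401294-9401394: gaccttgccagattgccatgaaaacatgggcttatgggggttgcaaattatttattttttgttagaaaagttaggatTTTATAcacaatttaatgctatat
p53 promoter in the Gr94a locus, 3R:23054088-23054188: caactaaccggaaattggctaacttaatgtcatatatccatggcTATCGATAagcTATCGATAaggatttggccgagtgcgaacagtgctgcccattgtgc
downstream of Gr93a, 3R:21834407-21834507: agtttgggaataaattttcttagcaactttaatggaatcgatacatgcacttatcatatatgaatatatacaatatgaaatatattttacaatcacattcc
upstream of Gr93a, 3R:21830528-21830628: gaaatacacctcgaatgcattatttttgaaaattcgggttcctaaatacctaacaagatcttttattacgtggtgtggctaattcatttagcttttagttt

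Receptor promoters were almost free of strong Lola-RJ-GFP sites. In the IDR-thresholded list, whose peaks passed a cut set by how far peak ranks match between replicates, 2 of 180 receptors had a summit within 500 bp of a TSS (1.11%, Wilson 95% interval 0.305 to 3.96%), against 22.9% of all coding genes. They were Or88a, which encodes a receptor for odours of other flies, and Gr63a, which encodes a subunit of the carbon dioxide receptor. Of the families, 1 of 60 Or genes and 1 of 60 Gr genes had such a summit (1.67% each, 0.295 to 8.86%). Among Ir genes the count was 0 of 60, which allows a share of up to 5% by the rule of 3 counts and up to 6.02% by the Wilson bound.

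The longer lists gave the same order of receptors below the background. In the pooled list of 30000 peaks, 10 of 180 receptors had a promoter summit (5.56%, 3.05 to 9.92%), against 49.9% of all coding genes. Replicate 1 also gave 10 receptors, against 50.6% of coding genes, and replicate 3 gave 11 (6.11%), against 51.0%. A promoter summit in both replicates' lists was present at 5 of 180 receptors and at 44.2% of all coding genes. In none of the 4 lists did a summit lie at the promoter of 162 receptors. The same count over all coding genes is not given here, so the 162 only describe the set.

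**Figure D1:**
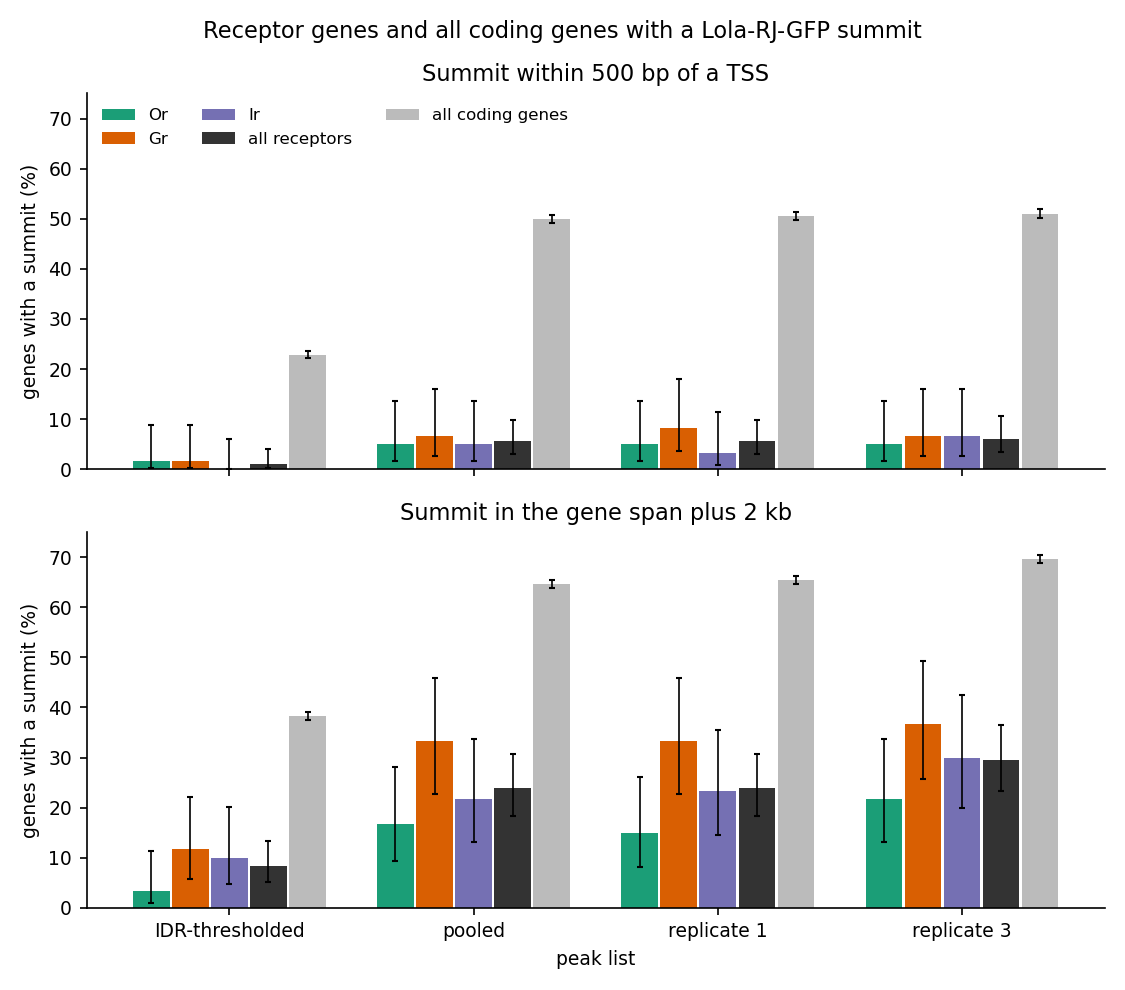
Percent of genes (y axis) with a summit within 500 bp of a TSS (upper panel) or in the gene span plus 2 kb (lower panel) in each of the 4 peak lists (x axis), for Or, Gr, Ir, all receptor and all coding genes. Bars start at 0, error bars are Wilson 95% intervals that cover counting error only, and in each list the bars of all coding genes stand above those of all 3 families.

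Over the locus, defined as the gene span with 2 kb added at either end, 15 of 180 receptors held a summit of the IDR-thresholded list (8.33%, 5.11 to 13.3%), against 38.2% of all coding genes. Gr genes had 7 of 60 (11.7%, 5.77 to 22.2%), Ir genes 6 of 60 (10%, 4.66 to 20.1%) and Or genes 2 of 60 (3.33%, 0.919 to 11.4%). The intervals of the families overlap, so the families were not separated at this number of genes. In the pooled list 43 of 180 receptor loci held a summit (23.9%, 18.2 to 30.6%), against 64.7% of coding genes. Gr loci were again first with 20 of 60 (33.3%, 22.7 to 45.9%), before Ir loci with 13 (21.7%, 13.1 to 33.6%) and Or loci with 10 (16.7%, 9.31 to 28.0%). Each pair of these intervals overlapped. Replicate 1 gave 43 receptor loci, against 65.4% of coding genes, and replicate 3 gave 53 (29.4%), against 69.6%. A locus summit in both replicates' lists was present at 38 of 180 receptors and at 8655 of 13945 coding genes. No list had a summit in the loci of 121 receptors, a count not given here for all coding genes.

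The receptors are short genes with few start sites. A single TSS was annotated for 167 of 180 receptors (92.8%), against 73.5% of coding genes, and the median span was 1691.5 bp, against 2166 bp. The comparison was also made among genes with a single TSS and a span under 3000 bp. In this class 2 of 154 receptors had a promoter summit of the IDR-thresholded list (1.30%), against 16.2% of all such genes. A locus summit was present at 14 of the 154 (9.09%), against 27.6%. The part of gene length and TSS number in the other shares was not tested.

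Within the receptor genes themselves no site passed the IDR threshold. The spans of the 180 genes, which cover 472 kb together, held no summit of that list, whereas 12.3% of all coding genes held at least 1 in their span. In the pooled list 8 receptor spans held a summit (4 Gr, 3 Ir and 1 Or), against 34.0% of coding genes. With the 2 kb flanks included, the density of summits was 21.5 per Mb in receptor loci, against 46.0 per Mb over the 6 arms. Gr loci, at 45.1 per Mb with 12 summits, were close to the density of the arms, whereas Or loci had 12.5 per Mb and Ir loci 13.5 per Mb. Of the 12 Gr summits 4 lay beside the single gene Gr93a. The Ir loci cover 445 kb, of which the single gene Ir41a spans 104437 bp, and its locus held no summit of that list.

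The distance from a receptor TSS to the nearest summit of the IDR-thresholded list had a median of 18254 bp, against 6061 bp for all coding genes. The median was 25506 bp for Or genes, 15421 bp for Ir genes and 13866 bp for Gr genes. For the pooled list the medians were 10241.5 bp at receptors and 503 bp at all coding genes. Repeated sequence, where reads cannot be placed, was rare within 500 bp of the receptor TSSs. The rest of the gene spans and flanks was not examined for it. Only Or19a and Or19b, a near-identical pair in which 16.3% of 32-base words were unique in the genome, and Ir40a (86.0%) fell under 95% unique words, 3 of 180 receptors against 5.12% of coding genes. Reads from Or19a and Or19b may not be placed, so a missing peak is not informative at this pair.

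Weaker sites did not fill the gap. Peaks of the pooled list from the IDR cut down to rank 12000 lay at 1.11% of receptor promoters, against 19.3% of coding gene promoters. The next band, down to rank 20000, gave 1.67% of receptors against 16.6%. The last band, down to rank 30000, gave 2.22% of receptors against 12.7%. Over loci the receptor share was 8.33%, 8.33%, 11.1% and 13.9% from the strongest to the weakest band, against 38.2%, 36.3%, 36.9% and 37.7% of coding genes. Receptor shares were thus highest, and the distance to the background smallest, among the weakest peaks.

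**Figure D2:**
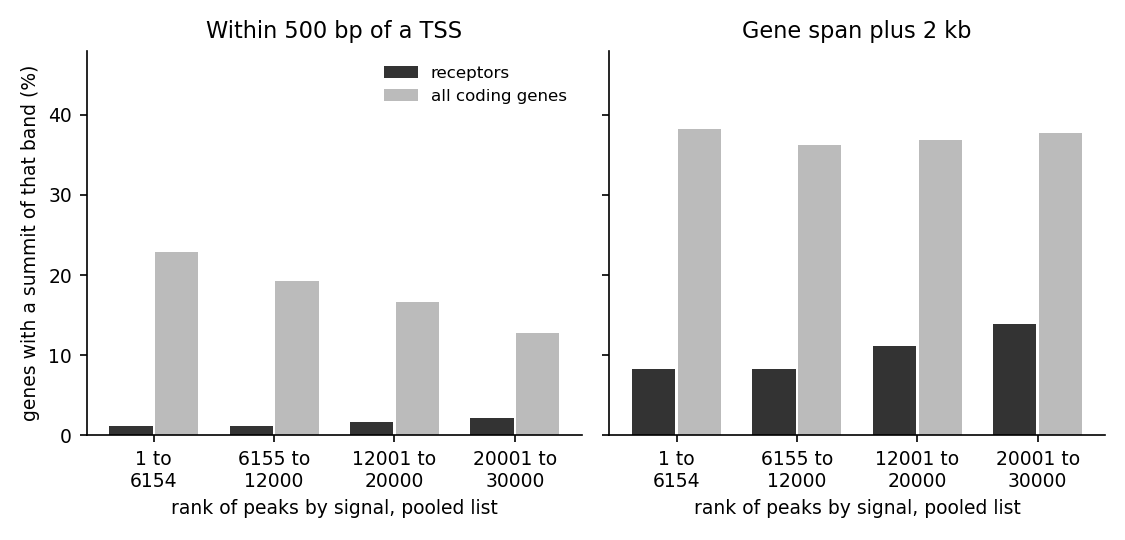
Percent of genes (y axis) with a summit from each rank band of the pooled list, strongest band first (x axis), at a TSS (left panel) and in the locus (right panel), for receptors and all coding genes. The receptor share at promoters lies between 1.11% and 2.22% in every band, while that of all coding genes lies between 12.7% and 22.9%.

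The 22 summits of the IDR-thresholded list in receptor loci were then assigned to the receptor or to a neighbour. A single summit, 423 bp upstream of Or88a, was within 500 bp of a receptor TSS and of no non-receptor TSS. Another 10 belonged to a neighbouring promoter, 1 of which was the Gr63a summit in a window shared with Lamtor4. A further 3 lay in the body of another gene, and 8 lay in flanking sequence outside every coding gene. None lay within the span of a receptor. The 10 at a neighbouring promoter made up 45.5% of the 22. Of all summits of the list, 40.4% lay within 500 bp of a coding TSS, so this share was near the general one. By family, the neighbouring promoters took 3 of 4 Or summits, 4 of 12 Gr summits and 3 of 6 Ir summits. All 22 summits had a summit within 100 bp in both replicates, against 92.7% of all summits of the list. Their signal, a value per peak that the authors deposited without a stated scale and that serves only to rank peaks, had a median of 227, against 268 for the whole list.

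**Figure D3:**
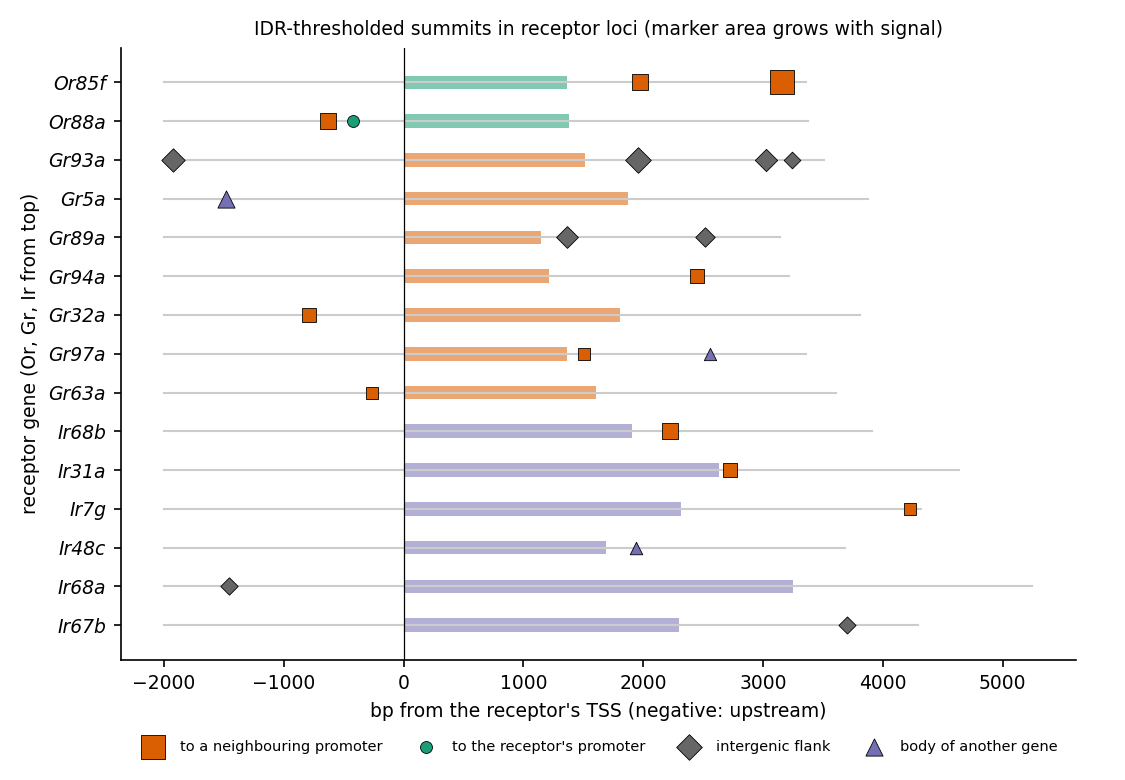
Position of the 22 summits of the IDR-thresholded list relative to the receptor TSS (x axis, bp, negative upstream) in the 15 receptor loci that held one (y axis). Coloured boxes are receptor gene spans, grey lines the loci with 2 kb flanks, and markers show the class of each summit, with a larger area for a higher signal. No marker lies on a receptor gene span, and only the Or88a marker is assigned to a receptor promoter.

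At Or88a the summit assigned to the receptor was the weaker of a pair between Or88a and the uncharacterised gene CG12402. It lay 423 bp upstream of Or88a and 701 bp upstream of CG12402, with a signal of 149.7 and rank 5776. Its signal was 63.7 in replicate 1 (rank 8482) and 32.4 in replicate 3 (rank 11446), so neither replicate alone placed it among as many of its strongest peaks as the IDR-thresholded list holds. The stronger summit, with a signal of 397 and rank 1930, lay 491 bp upstream of CG12402 and 633 bp upstream of Or88a. It ranked 2026 in replicate 1 and 1698 in replicate 3. The sequence at the receptor summit, printed above, held none of the 4 motifs.

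At Gr63a the summit lay 263 bp upstream of the receptor and 34 bp upstream of Lamtor4, a subunit of the Ragulator complex on lysosomes. Its signal was 144 (rank 5977), with 89.3 in replicate 1 (rank 5769) and 50.8 in replicate 3 (rank 7811). The printed sequence holds the M1BP motif, which 1 of the 22 windows in receptor loci contained, against 0.699% of the windows at all summits of the list. Gr21a, the partner of Gr63a in carbon dioxide sensing, had no summit in its locus in any of the 4 lists, and its nearest summit of the IDR-thresholded list was 38521 bp away.

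The strongest summit in any receptor locus was at the promoter of the ribosomal protein gene RpL34b, 3154 bp downstream of the TSS of Or85f, a receptor for odours of parasitoid wasps. It lay 118 bp upstream of RpL34b, and its signal of 935 ranked 507 in the list, 569 in replicate 1 and 479 in replicate 3. The same locus held a summit 109 bp upstream of CG34117, with a signal of 382 and rank 2005. Or85f itself had a promoter summit only in the pooled list, 329 bp upstream at rank 21969, and in replicate 1 at rank 19684. The summits at the neighbours were found in both replicates, whereas the one at Or85f was not in replicate 3.

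The remaining neighbouring promoters belonged to genes of varied roles outside chemosensation. In the Ir68b locus the summit lay 20 bp upstream of yps, which encodes a Y-box RNA-binding protein, with a signal of 334. Gr94a lies inside the span of p53, and its summit was 56 bp upstream of p53, the tumour suppressor gene, with a signal of 245. The printed sequence of that site holds the DRE motif in 2 copies. It was the only 1 of the 22 windows with that motif (4.55%), against 1.20% of the windows at all summits of the list. In the Ir31a locus the summit lay 60 bp upstream of RpS27A, which encodes a ubiquitin and ribosomal protein fusion, with a signal of 215. Gr32a, a receptor for bitter compounds and a male pheromone, had a summit 161 bp upstream of its neighbour Idua, a lysosomal enzyme gene, with a signal of 214. Ir7g had one 105 bp upstream of Acat1, an acetyl-CoA acetyltransferase gene, with a signal of 199, and Gr97a one 165 bp upstream of the tetraspanin gene Tsp97E, with a signal of 143. The replicates ranked 2 of these sites far apart, the Ir31a site at 8074 in replicate 1 and 2702 in replicate 3, and the Tsp97E site at 5900 in replicate 1 and 12414 in replicate 3.

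The 10 summits at neighbouring promoters lay upstream of the neighbour's TSS in every case, at a median of 107 bp. Their median distance from the receptor TSS was 2098 bp. Among all 2488 summits of the list within 500 bp of a coding TSS, 85.7% lay upstream of the nearest TSS. The 10 thus lay on the same side of the TSS as most promoter summits, while their closeness to it was set by the 500 bp rule. Their distance from the receptor TSS ranged from 263 to 4230 bp.

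**Figure D4:**
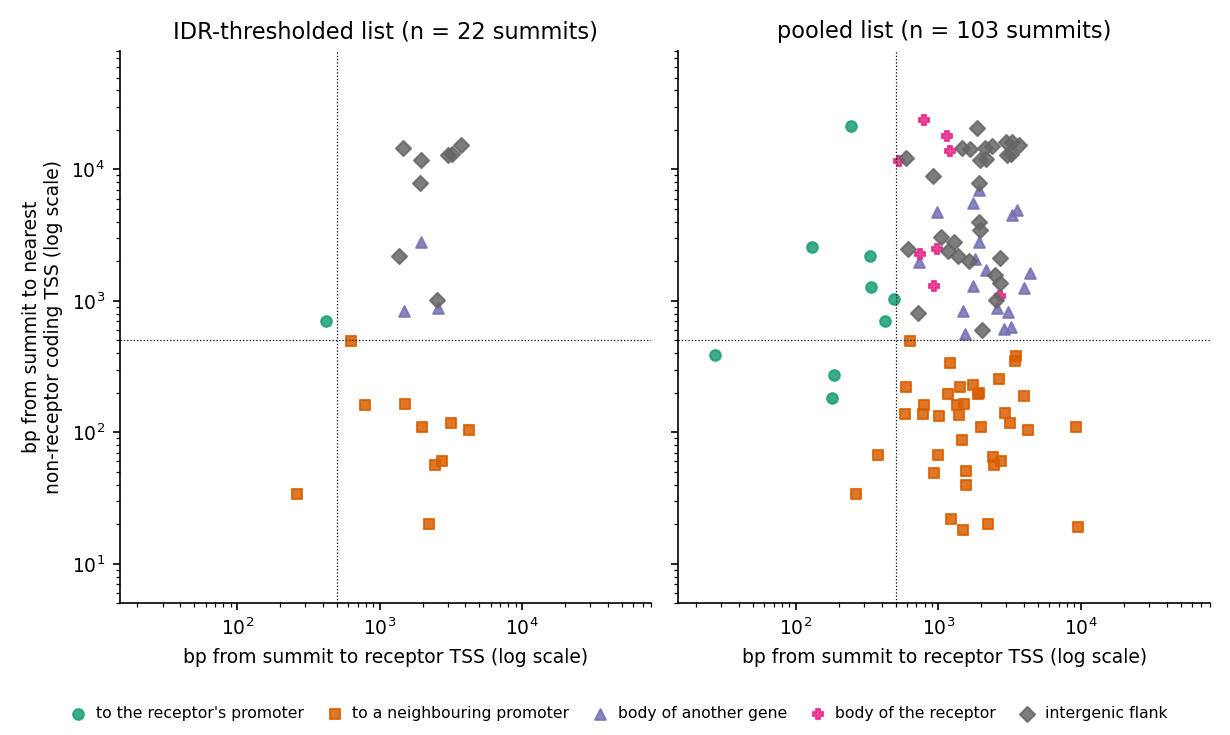
Distance of each summit in a receptor locus to the receptor TSS (x axis, bp, log scale) and to the nearest non-receptor coding TSS (y axis, bp, log scale), for the IDR-thresholded list (left) and the pooled list (right). Dotted lines mark 500 bp and markers the class of each summit. In the left panel 10 of 22 summits lie at a neighbouring promoter and 1 at a receptor promoter, and in the right panel 39 of 103 are assigned to a neighbouring promoter.

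The 3 summits in the body of another gene were at Gr5a, Ir48c and Gr97a. Gr5a, a sugar receptor that detects trehalose, had a summit 1484 bp upstream, inside Tre1, a G-protein-coupled receptor gene needed for germ cell migration. This was the strongest of the 3, with a signal of 432, rank 2555 in replicate 1 and rank 1267 in replicate 3. Ir48c lies within the span of thisbe (ths), which encodes a fibroblast growth factor, and its summit had a signal of 177. The second Gr97a summit, with a signal of 168, was 886 bp downstream of the Tsp97E TSS.

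Of the 8 flanking summits 4 surrounded Gr93a, which encodes a receptor needed for the response to caffeine. They lay 1925 bp upstream and 1954, 3027 and 3242 bp downstream of its TSS, and the nearest coding TSS of a non-receptor gene, that of CASK, was between 7904 and 13071 bp from them. Their signals were 393, 494, 346 and 145 in this order. The first 3 ranked 1430, 1378 and 1966 in replicate 1 and 2145, 1595 and 2965 in replicate 3, so they were strong in both replicates. The last ranked 2797 in replicate 1 and 15297 in replicate 3, and whether it is a separate site from the summit at 3027 bp was not tested. Within 500 bp of the Gr93a TSS only replicate 3 had summits, the stronger 187 bp upstream at rank 15831 and a weaker one 21 bp downstream. Among the receptors Gr93a had the most summits of the IDR-thresholded list, and no non-receptor coding TSS lay in its locus.

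The other flanking summits were at Gr89a, Ir68a and Ir67b. Gr89a, which is expressed in bitter-sensing neurons, had 2 downstream summits with signals of 326 and 239, which lay 2177 and 1018 bp upstream of the cadherin gene Cad89D. Ir68a, a receptor for moist air, had a summit 1461 bp upstream with a signal of 167. This summit was 59 bp upstream of the TSS of a non-coding RNA gene, lncRNA:CR44718, and the nearest non-receptor coding TSS, that of scyl, was 14628 bp away. The Ir67b summit, 3699 bp downstream with a signal of 158, had its nearest non-receptor coding TSS, that of CG12362, at 15466 bp.

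The presence of a neighbour's TSS in a receptor locus went with the presence of a summit. A coding TSS of a non-receptor gene lay in 61 of 180 receptor loci (33.9%), against 76.3% of all coding gene loci. Of these 61 loci 11 held a summit of the IDR-thresholded list (18.0%), against 4 of the 119 loci without one (3.36%). The pooled list gave 27 of 61 (44.3%) against 16 of 119 (13.4%). Loci with no other coding TSS of any family, receptors included, held a summit at 4 of 73 receptors (5.48%), against 20.8% of coding genes of that layout. With at least 1 other coding TSS the count was 11 of 107 receptors (10.3%), against 43.5%. Receptors were thus below the background in both layouts, and these shares were compared as counts without a test.

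The neighbours themselves were bound more often than the receptors. A TSS in a receptor locus was found for 87 coding genes that are not receptors. Of these, 14 had a promoter summit of the IDR-thresholded list (16.1%, 9.83 to 25.2%), against 22.9% of all coding genes. The pooled list gave 35 of 87 (40.2%, 30.6 to 50.7%), against 49.9%. Replicate 1 gave 36 (41.4%, 31.6 to 51.9%), against 50.6%, and replicate 3 gave 33 (37.9%, 28.5 to 48.4%), against 51.0%. For the IDR-thresholded list the interval of the neighbours lies above that of the receptors and holds the share of all coding genes. The pooled and replicate 1 intervals also hold the share of all coding genes in their lists, whereas the replicate 3 interval lies below it. Receptor loci also overlap each other, since 77 of the 180 overlapped the locus of another receptor, and 25 receptors lie within the span of another gene.

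In the pooled list 103 summits fell in receptor loci, of which 17 were assigned to a receptor, 39 to a neighbouring promoter, 18 to the body of another gene and 29 to flanking sequence. The 39 made up 37.9%, while 29.0% of all summits of the list lay within 500 bp of a coding TSS. Of the 17, 6 lay at a receptor promoter, 8 in a receptor body and 3 in a shared window nearer to the receptor. A summit within 100 bp in both replicates was found for 47 of the 103 (45.6%), against 45.7% of all 30000 summits of the list. In replicate 1 alone 74 of the 103 had a match, and in replicate 3 alone 59.

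After Or88a and Gr63a, the strongest promoter summits of receptors in the pooled list were those of Ir67c, Gr97a and Gr39b, and these 5 were found in both replicates. At Ir67c the summit lay 245 bp upstream with a signal of 94.3 (rank 8951) and 21532 bp from the nearest coding TSS of a non-receptor gene. Its ranks of 22344 in replicate 1 and 5438 in replicate 3 lay far apart, and in replicate 3 no other receptor promoter summit ranked as high. At Gr97a the summit lay 378 bp upstream of the receptor and 67 bp upstream of CG5521, with a signal of 68.1 (rank 11999). At Gr39b it lay 488 bp upstream, near the edge of the window, with a signal of 61.0 (rank 13179), 39.9 in replicate 1 and 23.5 in replicate 3. The locus of Gr39b also held a pooled summit in the gene body, 973 bp downstream of the TSS, with a signal of 111 (rank 7694), which ranked 6966 in replicate 1 and 9457 in replicate 3.

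The other 5 were below rank 15000 and not found in both replicates. Ir31a, a receptor for an organic acid in the antenna, had a summit 178 bp upstream, 184 bp from the TSS of CG17768, at rank 15791, and a weaker one 27 bp downstream at rank 26095. Gr61a, a sugar receptor, had one 184 bp downstream of its TSS and 275 bp upstream of JMJD5, at rank 18346. Or85f followed at rank 21969, Ir25a at 27772 and Or46a at 29911.

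The 4 co-receptors were too few to be set apart from the other receptors or from all coding genes. None of Orco, Ir8a, Ir25a and Ir76b had a summit of the IDR-thresholded list in its locus. Orco had no summit in its locus in the pooled list or in replicate 1, and replicate 3 had a single one, 749 bp upstream at rank 6135 with a signal of 65.8. Its nearest summit of the IDR-thresholded list was 38770 bp away. Ir25a, the most widely used co-receptor of its family, was the only one with a pooled summit at its promoter, 130 bp upstream with a signal of 26.3, and neither replicate had a summit there. Ir76b had a summit in replicate 3 alone, 1497 bp upstream at rank 7519, and Ir8a had 2 in replicate 1 alone, the stronger at rank 17428. Each of these single-replicate sites was absent from the other replicate's list.

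Subgroups by function had few members and few summits in the IDR-thresholded list. Of 9 sugar receptor genes 0 had a promoter summit (Wilson upper bound 29.9%), against 22.9% of all coding genes, and 1, Gr5a, had a locus summit (11.1%, 1.99 to 43.5%), against 38.2%. With 9 genes both intervals hold the share of all coding genes, so no difference was detectable. Of 17 antennal Ir genes 0 had a promoter summit (upper bound 18.4%) and 2, Ir31a and Ir68a, a locus summit (11.8%, 3.29 to 34.3%), against the same 22.9% and 38.2%. The 25 Or genes that are used by the larva, whose olfactory organ forms in the embryo, had 0 promoter summits and 0 locus summits in that list (upper bound 13.3% each). In the pooled list 1 of these 25 loci held a summit (4%, 0.710 to 19.5%), against 64.7% of all coding genes.

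At promoters, odorant binding protein, CheA and CheB, and pickpocket genes had intervals below the share of all coding genes in both lists. Their loci varied by family. Of 51 odorant binding protein genes, which encode soluble carriers in the sensillum lymph, 1 (Obp99b) had a promoter summit in the IDR-thresholded list (1.96%, 0.347 to 10.3%), against 22.9% of all coding genes, and 7 a locus summit (13.7%, 6.81 to 25.7%), against 38.2%. The pooled list gave 11 of these promoters (21.6%, 12.5 to 34.6%), against 49.9%, and 22 of the loci (43.1%, 30.5 to 56.7%), against 64.7%. In the IDR-thresholded list the CheA and CheB genes gave 0 of 20 promoters (upper bound 16.1%), against 22.9%, and 3 of 20 loci (15%, 5.24 to 36.0%), against 38.2%. In the pooled list they gave 5 of 20 promoters (25%, 11.2 to 46.9%), against 49.9%, and 11 of 20 loci (55%, 34.2 to 74.2%), against 64.7%. Pickpocket genes encode sodium channel subunits of taste and touch neurons. In the IDR-thresholded list they gave 0 of 30 promoters (upper bound 11.4%), against 22.9%, and 7 of 30 loci (23.3%, 11.8 to 40.9%), against 38.2%. They gave, in the pooled list, 3 of 30 promoters (10%, 3.46 to 25.6%), against 49.9%, and 21 of 30 loci (70%, 52.1 to 83.3%), against 64.7%. Pickpocket loci in both lists and CheA and CheB loci in the pooled list had intervals that hold the share of all coding genes, which those of receptor loci do not. With 20 or 30 genes these intervals are wider than those of 180 receptors. In the IDR-thresholded list the pickpocket interval overlaps that of receptor loci (5.11 to 13.3%), so the 2 were not separated there. Of 6 accessory genes of olfaction, among them Snmp1 and lush, none had a summit of the IDR-thresholded list in its locus (upper bound 39.0%). That bound holds the 38.2% of all coding genes, so no difference was detectable there. In the pooled list 1 of the 6 loci had a summit (16.7%, 3.01 to 56.4%), against 64.7%.

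For transcription factor genes that act in olfactory neurons, every interval held the share of all coding genes. Of 19 such genes 1, Xbp1, a regulator of the unfolded protein response, had a promoter summit in that list (5.26%, 0.935 to 24.6%), with a signal of 934 and rank 508, against 22.9%. A locus summit was present at 8 of 19 (42.1%, 23.1 to 63.7%), among them acj6, sim, Fer1, hth and lz, against 38.2%. The pooled list gave 11 of 19 promoters (57.9%, 36.3 to 76.9%), against 49.9%, and 16 of 19 loci (84.2%, 62.4 to 94.5%), against 64.7%.

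Cuticle protein genes are another large clustered family. They gave 0 of 123 promoters (upper bound 3.03%), against 22.9% of all coding genes, and 9 of 123 loci (7.32%, 3.90 to 13.3%), against 38.2%, in the IDR-thresholded list. The pooled list gave 5 of 123 promoters (4.07%, 1.75 to 9.16%), against 49.9%, and 23 of 123 loci (18.7%, 12.8 to 26.5%), against 64.7%. These intervals overlap those of the receptors in both lists.

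Receptor promoters were nearly without the DRE and M1BP motifs, which are known from the promoters of broadly expressed genes. A single window was scanned per gene, from 250 bp before to 50 bp after its most upstream TSS. In genes with several TSSs the summit may lie at another TSS. The DRE motif TATCGATA was found on either strand in 1 of 180 receptor promoters (0.556%, a Gr gene). It was found in 9.36% of all coding promoters and in 16.1% for coding genes with a promoter summit of the IDR-thresholded list. The M1BP motif GGTCACAC was found in 0 of 180, against 7.70% of all coding promoters and 12.5% of those with a summit. The short GAGAG motif was in 20.6% of receptor promoters, against 29.7%. The TATAAA motif was in 54.4%, against 45.8%, and the families differed in it, with 78.3% of Or, 55% of Ir and 30% of Gr promoters. The A/T content had a median of 60.7% in receptor promoters and 62.0% in all coding promoters. These letters describe the sequence windows and do not show whether a factor binds there.

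**Figure D5:**
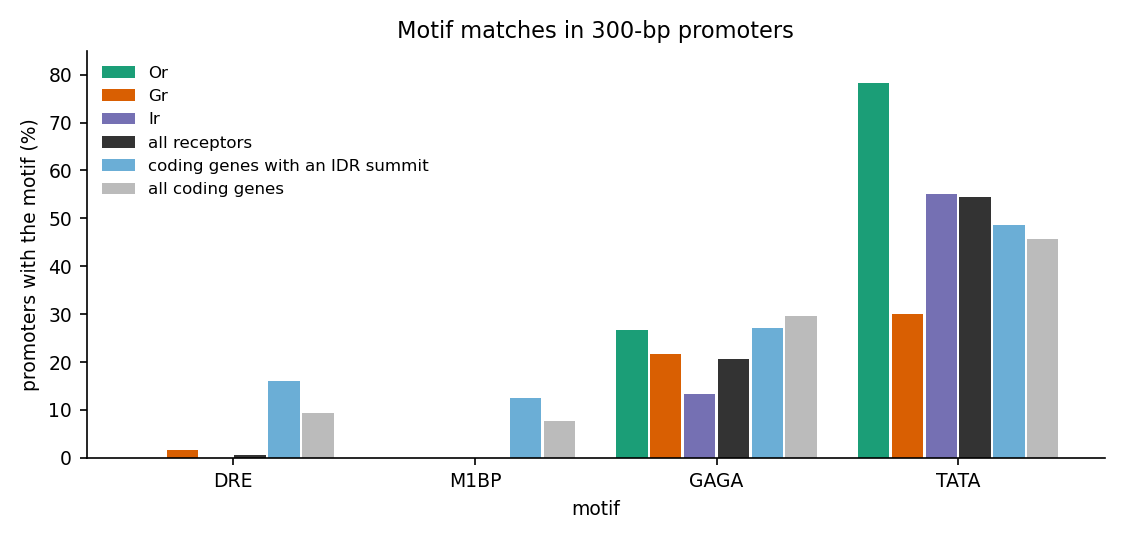
Percent of promoters (y axis), from 250 bp before to 50 bp after the most upstream TSS, with a match to each motif on either strand (x axis). Groups are Or, Gr, Ir and all receptor genes, coding genes with a summit of the IDR-thresholded list within 500 bp of any TSS, and all coding genes. The DRE is present in 0.556% of receptor promoters and 9.36% of all coding promoters, and TATAAA in 78.3% of Or and 30% of Gr promoters.

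Around the summits themselves, from 50 bp before to 50 bp after, the 22 sites in receptor loci had a median A/T content of 68.3% (42.6 to 80.2%), against 71.3% for all sites of the list. The site with the lowest value was the weakest of the Gr93a summits. The GAGAG motif was in 0 of the 22 windows, against 7.30% of all windows, and TATAAA in 5 of 22 (22.7%), against 28.5%. With 22 sites these shares are coarse, since a single site is worth 4.55%.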

How the data were processed

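The authors deposited 4 peak lists on dm6, per the submitters' file records 1 for each replicate, 1 called on both pooled, and 1 thresholded by IDR, and per the labels' protocols the chromatin was sonicated to 200 to 800 bp. Not given in the sources used here were aligner, caller and versions. The deposited values used were the signal, the −log10 q value and the summit offset that places each peak. Signal, whose scale is not stated, served only to rank peaks within a list. The −log10 q value was 4.33 at every IDR-thresholded peak and ranked nothing. The 6154 IDR-thresholded peaks were the 6154 strongest pooled peaks. Read depth is unknown, and coverage and controls were not used here, so intervals cover counting error only.

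Genes and coding TSSs came from Ensembl release 115 and sequence from RefSeq's copy of dm6. Genes were counted with Python 3.11.15, pandas 2.3.3 and numpy 2.4.6, and the counting was tested on simulated peaks. Shares have Wilson 95% intervals (scipy 1.17.1). Summits within 100 bp in 2 lists were taken as matching. A summit within 500 bp of a receptor TSS and another coding TSS went to the nearer. No test was run, since there was 1 group of 2 replicates and neighbouring genes share summits. The members and lists were chosen with earlier results of these data known. Named genes were the receptors with an IDR-thresholded summit, the 4 co-receptors, the 10 strongest pooled promoter summits and the neighbours holding summits. Others, given for context, were chosen after their values were seen. Alternatives changed the list, window, flank and replicates.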

Additional observations from a re-analysis of the deposited data

How the results depend on the processing

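The share of receptors, or of a family, lay below that of all coding genes in all 78 alternative shares computed. Of the 100 alternative values for 12 results, 55 stayed within 1.5 times the main count. The others follow, with the share of all coding genes in the same setting. With the 3077 strongest peaks of the IDR-thresholded list, promoter summits were at 0 receptors (0 Or, 0 Gr), against 13.5% of coding genes, and locus summits at 6 (3 Gr, 1 Ir), against 24.8%, with 4 summits assigned to neighbours and 0 to receptors. With the 12000 strongest pooled peaks, promoter summits were at 4 receptors (2 Gr, 1 Ir), against 36.9%, and locus summits at 24 (12 Gr, 4 Or), against 53.6%, with 18 summits assigned to neighbours and 3 to receptors. A 250 bp window left 0 promoter summits (0 Or, 0 Gr), against 18.2%, and 0 assigned to a receptor, and a 1000 bp window gave 2 Gr genes, against 25.7%. The span alone gave 0 loci (0 Or, 0 Gr, 0 Ir), against 12.3%, 0 summits assigned to neighbours and 0 to receptors. A 5 kb flank gave 33 loci (13 Gr, 15 Ir, 5 Or), against 51.8%, and 30 summits assigned to neighbours. In the pooled list, promoter summits numbered 5 with the 15000 strongest peaks, against 40.9%, 5 when required in both replicates, against 37.8%, 4 with 250 bp, against 41.9%, and 21 with 1000 bp, against 54.6%. Pooled loci numbered 28 with the 15000 strongest, against 57.4%, and 8 with the span alone, against 34.0%.

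With either replicate alone, as many of its strongest peaks as the list holds gave 1 receptor promoter each (range 1 to 1). Or stood at 0 to 0, Gr at 0 to 1 and Ir at 0 to 1, with 0 to 1 summits assigned to a receptor. Of all coding genes, 22.3% had a promoter summit without replicate 1 and 23.0% without replicate 3. Without replicate 1 the receptor was Ir67c, and without replicate 3 it was Gr63a, so neither replicate alone gave the Or88a site. No paired analysis was possible because there was 1 group. Peak lists carry no read counts, so an absent summit is not shown to be an absent site.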
